A study of Macaca mulatta with 24 samples.

Results

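Solute carriers of families 1 to 22 are membrane proteins that move single classes of small molecules across membranes. Their genes were chosen by symbol alone: every probe whose symbol began with SLC, a family number from 1 to 22 and a letter was taken, with SLC10A2 and SLC11A2 left out, so no measured value entered the choice. The rule found 189 probes for 124 genes among 43603 probes for 16094 symbols on a rhesus macaque expression array, and 53 of these genes had more than 1 probe. By symbol the rule also took in 4 genes, with 6 tested probes, that are named after a transporter and are not carriers themselves. Of the 189 probes, 111 for 82 genes were tested because some group had them clearly over background throughout, a share of 58.7% against 64.6% of all probes, and 55 reached that mark on all 24 arrays. The remaining 78 probes included 42 genes with no tested probe, and 9 probes were not well above background on any array.

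The arrays measured RNA from pieces of whole jejunal wall taken from 24 male rhesus macaques, 1 array per animal, after a single uniform total-body irradiation (TBI) with cobalt-60 gamma rays or a sham exposure. The 4 controls received 0 Gy and were labelled day 4. The irradiated groups held 4 animals on day 4 and 4 on day 7 after each of 6.7 Gy and 7.4 Gy, and 2 animals on day 12 after each dose. Every comparison with control used the same 4 controls, which were taken at 1 time, so change with age or handling by day 7 or day 12 has no control of its own. In whole tissue, fewer cells of a type and less RNA per cell cannot be told apart.

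Dietary sugars, amino acids and short peptides enter the absorptive enterocyte through carriers of its brush-border (apical) membrane, most of them driven by the sodium or proton gradient, and leave through carriers of the basolateral membrane. Other solute carriers exchange sodium, protons, chloride or bicarbonate to set the pH and the fluid content of the bowel, take up vitamins, phosphate and organic ions, or clear signalling molecules such as serotonin. The jejunum is the main site of nutrient uptake, its enterocytes are replaced from crypt cells within days, and dividing crypt cells are a main target of radiation in the gut.

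Levels are log2 values of the scanner's processed signal divided by the same array's 75th percentile, so a level of 0 is the signal at that percentile and a change of 1 is 2-fold. Levels of different probes cannot be set against each other. Changes are differences of group means with the standard error (SE) of limma's moderated test, and a probe is called changed at a Benjamini-Hochberg adjusted p under 0.05 over the 28171 tested probes together with a change of 2-fold or more. Between 39.4% and 87.7% of an array's probes were well above background, and the arrays lay on 6 slides that were scanned in 2 sets.

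Of the comparisons with control, day 4 showed the most calls. After 6.7-Gy TBI, 7 of the 111 tested solute carrier probes were called (6.31%, against 1.98% of all tested probes), 5 of them up-regulated (1.25% of all) and 2 down-regulated (0.731% of all). After 7.4-Gy TBI, 8 were called (7.21%, against 2.60%), with 5 up-regulated (1.71% of all) and 3 down-regulated (0.887% of all). All 4 irradiated arrays lay above all 4 controls for 8 member probes after 6.7 Gy (6.68% of all tested probes did so) and 11 after 7.4 Gy (7.28%), and below them for 8 (7.66%) and 15 (10.1%). Most carriers moved little: 79 of the 111 probes after 6.7 Gy and 68 after 7.4 Gy stayed within 0.5 of the control mean on the log2 scale. The median change over the 111 probes was −0.15 after 6.7 Gy and −0.23 after 7.4 Gy, beside −0.06 and −0.08 over all tested probes.

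On day 7, none of the 111 probes was called after 6.7-Gy TBI (0.0639% of all probes), with 6 probes at 2-fold or more and an unadjusted p under 0.05 (1.56% of all) and none called by the methods' t-test. There 3 probes lay wholly above and 8 wholly below the controls (3.99% and 3.16% of all). After 7.4 Gy, 3 were called and all were down-regulated (2.70%, against 0.288% in either direction and 0.170% downward). In that comparison 22 of the 111 probes (19.8%) had all 4 irradiated arrays below all 4 controls, against 5.38% of all tested probes, and none had all of them above, against 5.87%. On day 12, no member was called after either dose (0.00710% and 0.00355% of all probes), with 4 probes after 6.7 Gy and 6 after 7.4 Gy at 2-fold or more and an unadjusted p under 0.05 (1.83% and 2.55% of all) and none by the methods' t-test. With 2 animals per group on day 12, the smallest adjusted p over the members was 0.257 after 6.7 Gy and 0.302 after 7.4 Gy.

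**Figure D1:**
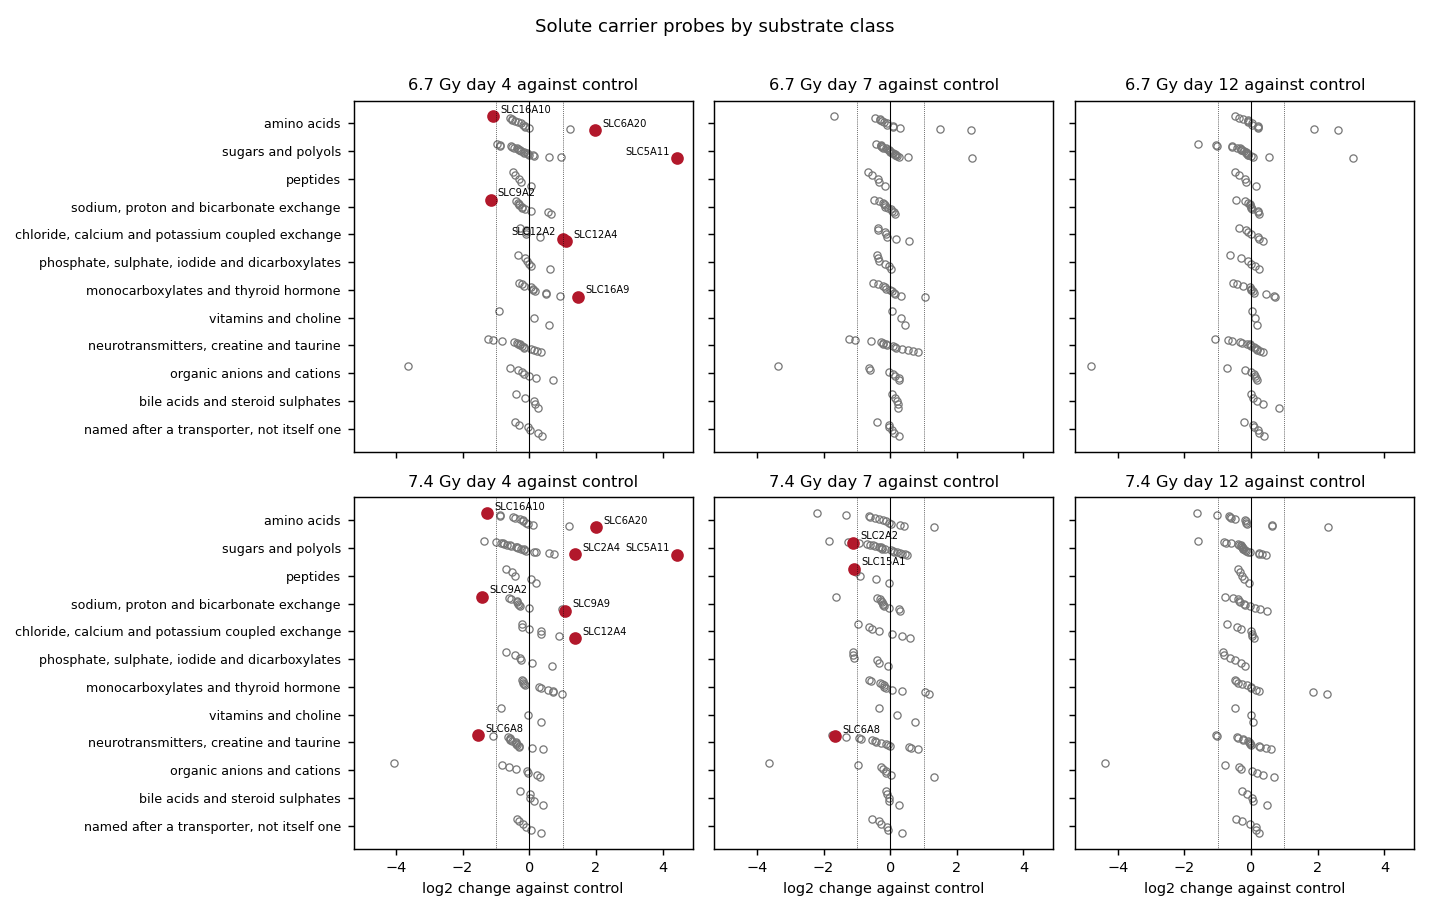
Log2 change against control (horizontal axis) of each tested solute carrier probe in 1 panel per irradiated group, by substrate class (vertical axis), with red filled points for called probes and dotted lines at 2-fold. The 7 and 8 called probes of day 4 spread over several classes in both directions, the 3 of day 7 after 7.4 Gy lie left of the lower 2-fold line, and no point is red in the other 3 panels.

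The plot of changes by substrate class places the calls of day 4 among carriers of amino acids, sugars, ions, monocarboxylates and creatine. With 1 probe per gene, the median change of the 4 tested genes of chloride, calcium and potassium coupled exchange was 0.46 after 6.7 Gy and 0.63 after 7.4 Gy on day 4, and that of the 9 tested monocarboxylate and thyroid hormone carriers was 0.17 and 0.35. The 12 tested amino acid carriers had medians of −0.21 and −0.18, the 14 tested sugar carriers −0.27 and −0.26, the 9 tested sodium, proton and bicarbonate exchangers −0.30 and −0.35, and the 9 tested neurotransmitter, creatine and taurine carriers −0.27 and −0.40. Over all 82 tested genes these medians were −0.17 and −0.22.

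Among the amino acid carriers, SLC16A10 (probe A_01_P013186), the basolateral TAT1 transporter of aromatic amino acids, was down-regulated on day 4 after both doses. The 4 controls lay close together at 0.99, 0.95, 1.04 and 0.88. On day 4 the arrays read 0.25, −0.03, −0.08 and −0.61 after 6.7 Gy and −0.36, 0.0021, −0.46 and −0.34 after 7.4 Gy. All 8 irradiated arrays of day 4 were below all 4 controls, with a change of −1.08 ± 0.19 (SE, n = 4 against 4, adjusted p = 0.0222, limma) after 6.7 Gy and −1.26 ± 0.14 (adjusted p = 0.00536) after 7.4 Gy. On day 7 the arrays had come back to between 0.58 and 1.07 after 6.7 Gy and between 0.036 and 1.05 after 7.4 Gy. The second tested probe of the gene (A_01_P1746536) had changes of −0.53 and −0.88 on day 4 and was not called (adjusted p = 0.71 and 0.19).

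SLC6A20, the apical SIT1 carrier of proline and other imino acids, was up-regulated on day 4 after both doses from a very low level. Its control arrays read −5.06, −4.31, −4.46 and −4.91, with 3 of the 4 clearly over background. The levels rose to −2.34, −3.19, −1.74 and −3.61 after 6.7 Gy and to −2.11, −3.35, −2.73 and −2.49 after 7.4 Gy. No array of day 4 overlapped the controls, with changes of 1.96 ± 0.39 (adjusted p = 0.0324) and 2.02 ± 0.28 (adjusted p = 0.0104). All but 1 of these levels lie under −1.85, the lowest level at which a probe was well above background on the least sensitive array. With every array's values raised to that common floor, the change was 0.03 after 6.7 Gy and 0 after 7.4 Gy. On day 12 after 6.7 Gy both arrays (−2.44 and −3.15) were again above every control, with a change of 1.89 that was not called (adjusted p = 0.257).

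The other amino acid carriers of the enterocyte had smaller or uncalled changes. SLC1A1, the glutamate and aspartate carrier EAAT3, was above control by 1.23 and 1.20 on day 4, 2.41 and 1.30 on day 7 and 2.62 and 2.32 on day 12 (6.7 Gy first each time), and passed the test in no comparison. Its adjusted p was 0.0942 on day 7 after 6.7 Gy, where the levels were 2.70, 1.63, 2.41 and 1.97 against 0.08, 0.30, 0.31 and −1.63 in the controls, and a model of all 24 arrays gave 0.0245. SLC7A9, the light chain of the cystine and dibasic amino acid exchanger, had changes between −0.66 and 0.10 over the 6 irradiated groups. SLC3A2, the heavy chain shared by basolateral exchangers, lay between −0.31 and 0.03, and its partner SLC7A8 between −0.58 and 0.64. SLC3A1, SLC7A7, SLC9A3 and SLC19A1 had no probe under those symbols, and the phosphate and urate carrier SLC17A4 had 1 probe, well above background on 17 arrays, that was not tested.

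SLC5A11, the sodium-coupled inositol carrier SMIT2 that belongs to the family of the intestinal glucose carrier, was up-regulated on day 4 after both doses. Its controls read −3.37, −2.36, −2.68 and −5.52, with the last of these not well above background. The 4 arrays of 6.7 Gy read 2.10, 2.08, 1.39 and −1.74, and those of 7.4 Gy read 2.64, 0.93, 0.53 and −0.29. All 8 arrays were above every control, with a change of 4.44 ± 0.95 after 6.7 Gy (adjusted p = 0.0416) and 4.43 ± 0.78 after 7.4 Gy (adjusted p = 0.0198). All 4 controls lie under the common floor, and with values raised to it the changes were 2.81 and 2.80 and neither was called. On day 7 the animals of 6.7 Gy were spread from −3.16 to 1.45 and those of 7.4 Gy from −4.79 to −1.58. On day 12 both arrays of 6.7 Gy (−0.17 and −0.65) were above every control, by 3.07 on average, without passing the test (adjusted p = 0.532), and those of 7.4 Gy (−4.20 and −2.31) had a change of 0.23.

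SLC2A4, the insulin-responsive glucose carrier GLUT4 of muscle and fat, was up-regulated on day 4 after 7.4 Gy and rose less than 2-fold after 6.7 Gy. Probe A_01_P1708246 read −3.64, −3.43, −3.11 and −3.04 in the controls, −2.55, −2.39, −2.22 and −2.19 after 6.7 Gy and −1.63, −1.83, −2.61 and −1.68 after 7.4 Gy. Both day 4 groups lay wholly above the controls, by 0.96 (adjusted p = 0.025) and by 1.36 ± 0.25 (adjusted p = 0.0215). Its other tested probe, A_01_P006487, had a change of 0.74 after 7.4 Gy (adjusted p = 0.031). With values set to the common floor the change of the first probe was 0.10.

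Among the sugar carriers that take up the products of digestion, SLC2A2, the basolateral GLUT2 exit route for glucose and fructose, was down-regulated on day 7 after 7.4 Gy. Probe A_01_P1758656 read −0.61, −0.86, −0.65 and −1.15 in the controls and −1.89, −1.93, −1.70 and −2.17 in that group, which did not overlap, a change of −1.11 ± 0.18 (adjusted p = 0.0487). The other tested probe of SLC2A2 (A_01_P001623) had a change of −0.94 and was not called (adjusted p = 0.096). On day 4 after 7.4 Gy both probes already lay below every control, by −0.84 and −0.76, without passing the test. SLC5A1, the sodium-coupled glucose carrier SGLT1 of the brush border, was at 4.94, 4.15, 4.10 and 4.17 in the controls, and its changes of −0.37, −0.55, 0.18, −0.69, −0.14 and −0.18 over the 6 groups, in the order of day and then dose, did not pass the test. SLC2A5, the fructose carrier GLUT5, was at 5.03, 6.16, 5.84 and 5.40 in the controls and had its lowest mean on day 7 after 7.4 Gy, with a change of −1.26 that did not pass the test (adjusted p = 0.24).

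**Figure D2:**
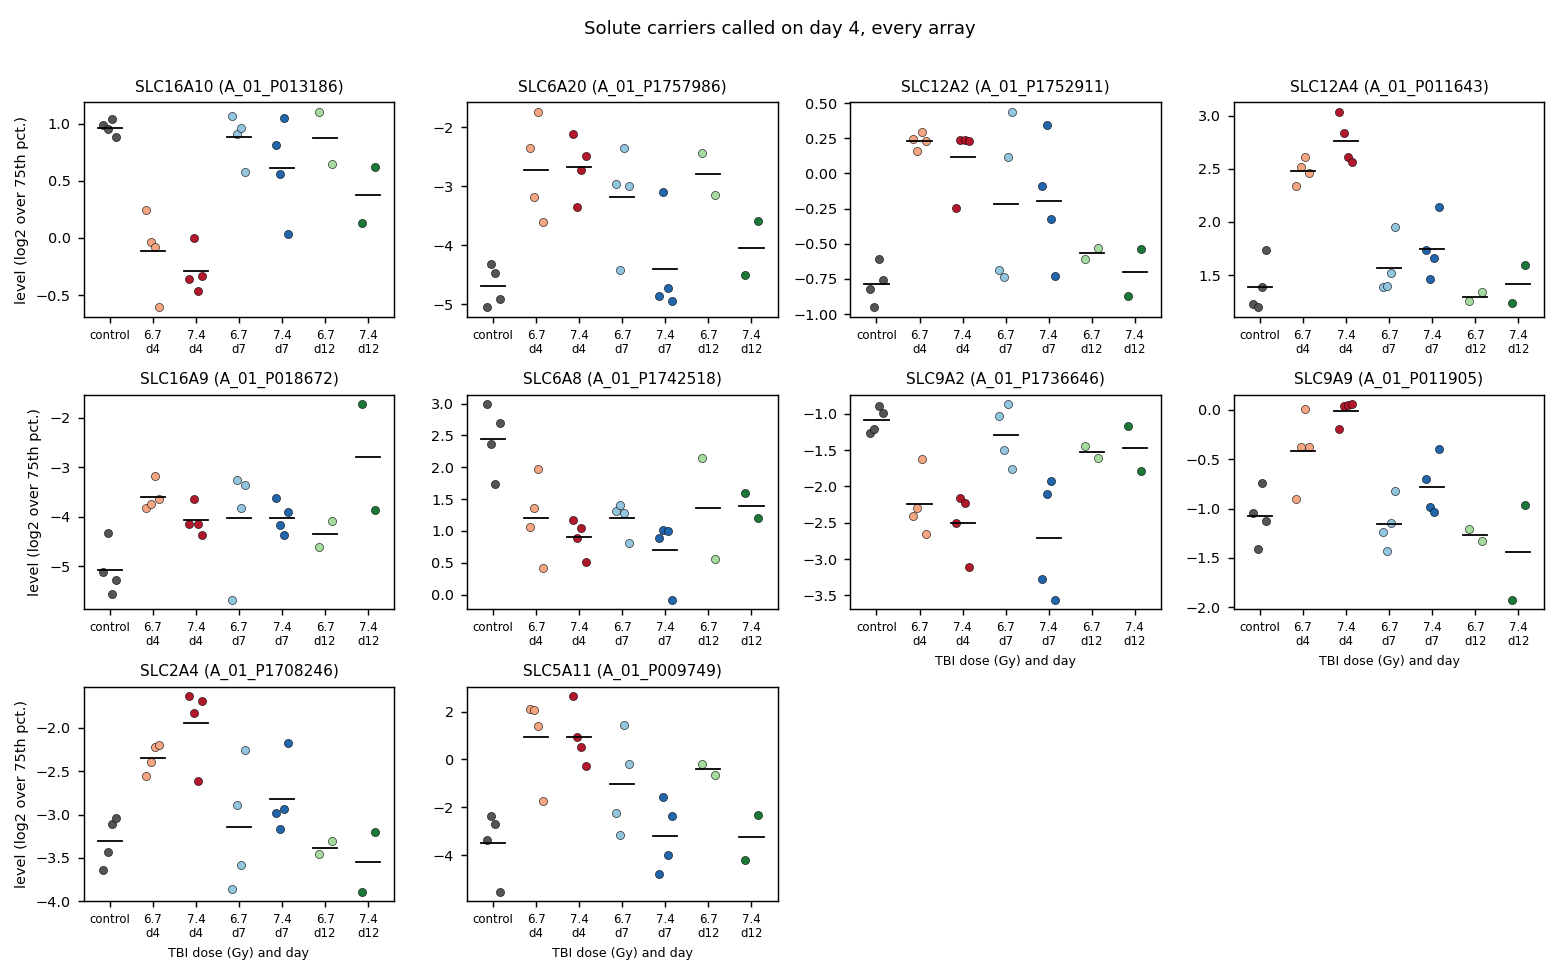
Log2 level against each array's 75th percentile (vertical axis) for the 10 probes called on day 4 after either dose, with 1 point per animal and a bar at the mean of each group (horizontal axis: TBI dose in Gy and day). SLC16A10, SLC9A2 and SLC6A8 were lower and the other 7 were higher on day 4 in the comparisons that were called.

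SLC15A1, the proton-coupled peptide carrier PEPT1 of the brush border, was down-regulated on day 7 after 7.4 Gy. On probe A_01_P1715091 the controls read 0.24, 0.14, 0.12 and 0.04, and the 4 arrays of that group read −1.04, −0.83, −0.62 and −1.28, a change of −1.08 ± 0.17 (adjusted p = 0.0487). Lower levels were already present on day 4 after 7.4 Gy (−0.36, −0.47, −0.59 and −0.84), where the change of −0.70 passed the test at less than 2-fold (adjusted p = 0.032). The 2 other tested probes of SLC15A1, A_01_P1676461 and A_01_P011787, had changes of −1.03 and −0.91 on day 7 after 7.4 Gy and were not called (adjusted p = 0.098 and 0.16). By day 12 it read 0.06 and −0.52 at the lower dose and −0.23 and −0.03 at the higher.

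Among the sodium and proton exchangers, SLC9A2, the apical exchanger NHE2, was down-regulated on day 4 after both doses. Its controls read −1.26, −1.21, −0.89 and −0.98, the 4 arrays of 6.7 Gy −2.41, −2.30, −1.62 and −2.66, and those of 7.4 Gy −2.50, −2.15, −2.23 and −3.12. None of the 8 overlapped the controls, with changes of −1.16 ± 0.22 (adjusted p = 0.0303) and −1.42 ± 0.22 (adjusted p = 0.0152). On day 7 the levels after 6.7 Gy ran from −1.75 to −0.87, across the controls, and those after 7.4 Gy were −3.28, −2.10, −1.92 and −3.56, a change of −1.63 that did not pass the test (adjusted p = 0.0931). Setting values to the common floor reduced the changes of day 4 to −0.71 and −0.76.

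SLC9A9, the exchanger NHE9 of endosomes, was up-regulated on day 4 after 7.4 Gy. Probe A_01_P011905 read −1.04, −1.41, −0.74 and −1.13 in the controls, −0.91, −0.37, 0.01 and −0.38 after 6.7 Gy and −0.19, 0.04, 0.05 and 0.06 after 7.4 Gy, where the change was 1.07 ± 0.17 (adjusted p = 0.0145). The 6.7-Gy arrays overlapped the controls and were not called. The second tested probe (A_01_P1689511) had a change of 0.98 after 7.4 Gy (adjusted p = 0.026). SLC4A4, the basolateral sodium-bicarbonate cotransporter NBCe1, lay between −0.34 and 0.23 of control on probe A_01_P1755111 in all 6 irradiated groups.

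Of the 4 tested genes of chloride, calcium and potassium coupled exchange, SLC12A4 and SLC12A2 were called on day 4. SLC12A4, the potassium-chloride cotransporter KCC1 that many cell types use to control their volume, read 1.23, 1.20, 1.39 and 1.74 in the controls on probe A_01_P011643. On day 4 it read 2.34, 2.51, 2.61 and 2.46 after 6.7 Gy and 3.03, 2.83, 2.61 and 2.57 after 7.4 Gy, all above every control. It changed by 1.09 ± 0.16 (adjusted p = 0.0142) and 1.37 ± 0.18 (adjusted p = 0.00843), and by day 12 the 4 arrays read between 1.24 and 1.60. The second tested probe of SLC12A4 (A_01_P1675891) had changes of 0.31 and 0.35 and was not called, so the probes of this gene gave different sizes.

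SLC12A2, the basolateral sodium-potassium-chloride cotransporter NKCC1 that loads chloride into secreting crypt cells, rose on day 4 after both doses and was called after 6.7 Gy. Its controls read −0.82, −0.95, −0.61 and −0.75, and the 8 arrays of day 4 read between −0.24 and 0.29. The change was 1.02 ± 0.13 after 6.7 Gy (adjusted p = 0.00862) and 0.90 after 7.4 Gy (adjusted p = 0.0209), just under 2-fold in the latter. On day 7 the arrays were split, with −0.68, −0.74, 0.12 and 0.44 after 6.7 Gy and −0.09, 0.34, −0.32 and −0.73 after 7.4 Gy, and on day 12 all 4 lay between −0.87 and −0.53, close to the controls.

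SLC16A9, a carrier of the monocarboxylate family that transports carnitine, was called on day 4 after 6.7 Gy, near the lower end of the signal. The controls read −5.11, −4.32, −5.55 and −5.28 and the 4 irradiated arrays −3.83, −3.74, −3.18 and −3.63, with 3 arrays of each group well above background. Neither group thus met the rule for testing a probe. It was met on day 12 after 7.4 Gy, where both arrays were well above background with a mean of −2.80. With no filter on dim probes the call was lost. The change was 1.47 ± 0.27 (adjusted p = 0.0256), and it was 0.99 after 7.4 Gy (adjusted p = 0.072), and the difference between the doses did not pass the test. All values lie under the common floor, where the change after 6.7 Gy was 0. SLC16A1, the lactate and butyrate carrier MCT1, had changes of 0.93 and 0.72 on day 4 and 1.18 on day 7 after 7.4 Gy that did not pass the test (adjusted p = 0.11, 0.14 and 0.33).

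SLC6A8, the creatine carrier, was called down on day 4 and on day 7 after 7.4 Gy, each time on a different probe. Probe A_01_P1742518 read 2.99, 2.37, 1.74 and 2.70 in the controls and 1.17, 0.88, 1.04 and 0.51 on day 4 after 7.4 Gy, a change of −1.55 ± 0.27 (adjusted p = 0.02). Probe A_01_P014746 read 5.11, 6.08, 5.46 and 5.90 in the controls and 4.17, 4.35, 3.49 and 3.89 on day 7 after 7.4 Gy, a change of −1.66 ± 0.26 (adjusted p = 0.0487). The groups did not overlap in either case. The probe not called had a change of −1.09 on day 4 (adjusted p = 0.061) and −1.74 on day 7 (adjusted p = 0.0618). Both probes were therefore lower by more than 2-fold at both times after 7.4 Gy, on either side of the threshold for p. After 6.7 Gy they were also more than 2-fold below control without being called, A_01_P1742518 by −1.24 on day 4 and −1.25 on day 7 (adjusted p = 0.094 and 0.132) and A_01_P014746 by −1.10 and −1.06 (adjusted p = 0.066 and 0.14). The model of all 24 arrays called both on day 4 after that dose (adjusted p = 0.0483 and 0.0313).

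SLC6A4, the serotonin carrier that enterocytes use to remove serotonin released by enteroendocrine cells, had control levels of 1.68, 1.89, 1.86 and 2.04. On day 4 after 6.7 Gy it read 1.20, 0.95, 1.37 and 0.63, a fall of less than 2-fold that passed the test (change −0.83, adjusted p = 0.045). On day 7 after 7.4 Gy it read 0.31, 1.03, 1.00 and −0.19, below every control, and the change of −1.33 did not pass the test (adjusted p = 0.076).

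**Figure D3:**
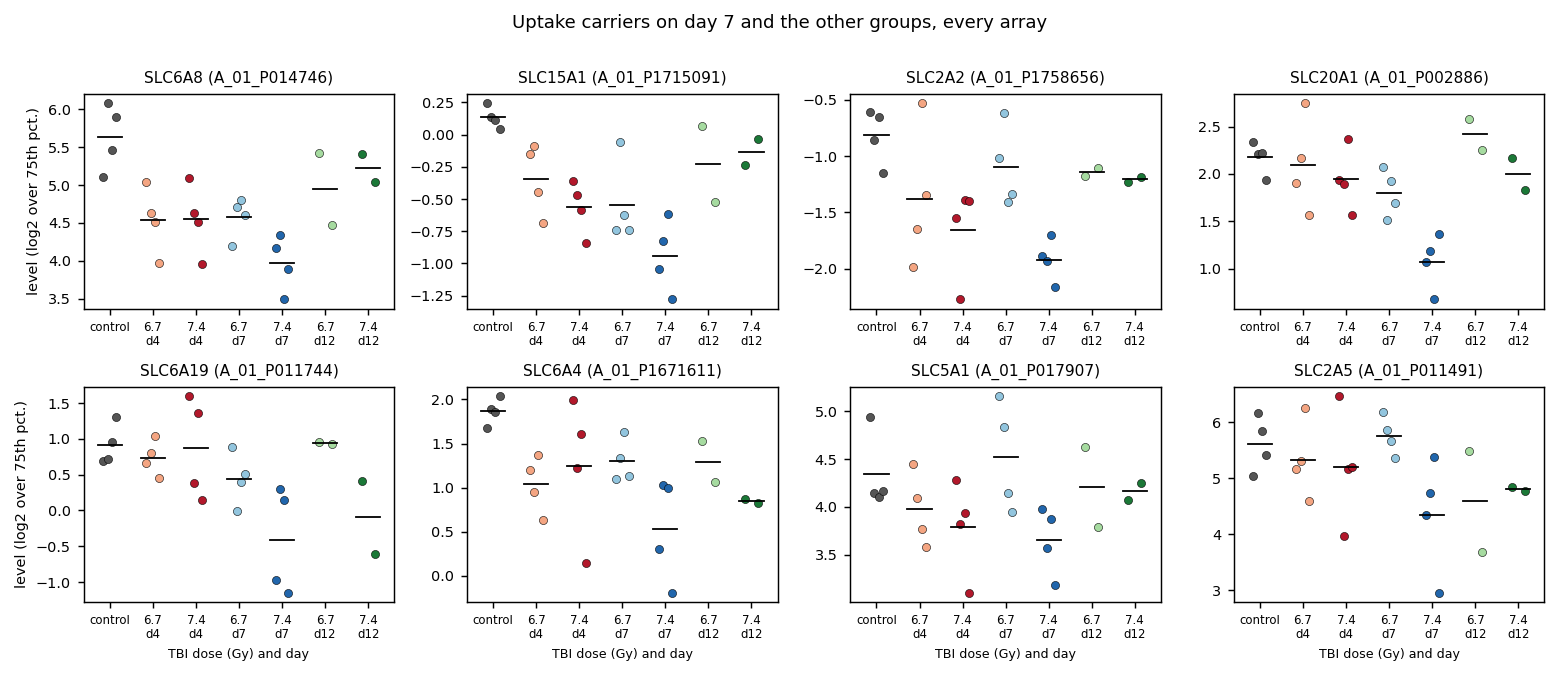
Log2 level against each array's 75th percentile (vertical axis) for 8 carriers on each animal's array, with a bar at the group mean (horizontal axis: TBI dose in Gy and day). The day 7 arrays of 7.4 Gy lie below all controls for every carrier shown except SLC2A5, and SLC6A8, SLC15A1 and SLC2A2 were called.

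The plot of levels in the carriers of day 7 includes probes that came close to the threshold after 7.4 Gy. SLC20A1, the sodium-phosphate carrier PiT1, read 2.34, 2.22, 2.23 and 1.93 in the controls on probe A_01_P002886 and 1.06, 1.18, 0.67 and 1.36 in that group. Its 2 tested probes had changes of −1.11 ± 0.18 and −1.12 and adjusted p-values of 0.0511 and 0.0571, just past the limit. SLC6A19, the apical neutral amino acid carrier B0AT1, read 0.68, 0.71, 0.96 and 1.30 in the controls and −0.97, 0.30, 0.14 and −1.14 in the same group, a change of −1.33 (adjusted p = 0.123). With all 24 arrays in 1 model, 10 member probes were called in this comparison in place of 3: both probes of SLC6A8 and of SLC20A1, and 1 each of SLC15A1, SLC2A2, SLC9A2, SLC6A4, SLC7A4 and SLC6A19. The share of all tested probes called in that model is not given here, so the rise cannot be read as particular to the carriers.

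The lists of carriers by membrane side were counted with 1 probe per gene. Of 13 tested apical carriers, SLC6A20 was called up and SLC9A2 down on day 4 after both doses, 10 of the 13 were below control after each dose, and their median change was −0.28 after 6.7 Gy and −0.41 after 7.4 Gy. On day 7 the median was 0.08 after 6.7 Gy with 8 of 13 above control, and −0.69 after 7.4 Gy with 10 of 13 below. The medians over all tested probes were 0.00 and −0.03. None was called after either dose on the probe that stands for its gene, while SLC15A1 was called after 7.4 Gy on another probe. Of 8 tested basolateral carriers, SLC12A2 was called up and SLC16A10 down on day 4 after 6.7 Gy and SLC16A10 down after 7.4 Gy, with medians of −0.27 and −0.30. On day 7 their medians were −0.12 and −0.13 with none called on these probes, while SLC2A2 was called after 7.4 Gy on its other probe.

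Classes with no call against control are given by their member with the smallest p in those comparisons. SLC22A5, the carnitine carrier OCTN2, was below control on all 4 arrays of day 4 after 7.4 Gy (0.24, −0.19, −0.06 and −0.39 against 0.85, 0.75, 0.76 and 0.54), and its change of −0.82 ± 0.17 passed the test at less than 2-fold (adjusted p = 0.0299). SLC19A2, a thiamine carrier, had 0.73 ± 0.22 on day 7 after 7.4 Gy (adjusted p = 0.166). SLC10A3, of the bile acid carrier family, had 0.48 ± 0.23 on day 12 after 7.4 Gy (adjusted p = 0.624). SLC9A3R1, a scaffold protein that binds the exchanger NHE3 and is named after it, had −0.55 ± 0.21 on day 7 after 7.4 Gy (adjusted p = 0.24). The remaining intestinal carriers listed for the jejunum were not called either: the biotin and pantothenate carrier SLC5A6 lay between −0.03 and 0.21 of control in the 6 groups, the thiamine carrier SLC19A3 at −0.89 and −0.84 on day 4 (adjusted p = 0.18 and 0.11), and the citrate and succinate carrier SLC13A2 at −1.07 on day 7 after 7.4 Gy (adjusted p = 0.16).

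Between the doses, no member was called on day 4, 7 or 12 by limma in the model of all 24 arrays, as was the case for all probes (0%). At 2-fold or more and an unadjusted p under 0.05 there were 0, 7 and 2 member probes (0.277%, 0.735% and 1.88% of all), and the methods' t-test called none. On day 7, 9 of the 111 probes (8.11%) had all 4 arrays of 7.4 Gy below all 4 of 6.7 Gy, against 1.69% of all tested probes, and none had them above, against 1.17%. SLC9A2 had the smallest p of these, with a difference of −1.43 ± 0.32 (7.4 Gy against 6.7 Gy, adjusted p = 0.589). The corresponding differences were −0.73 for SLC20A1, −0.83 for SLC2A2, −0.87 for SLC5A1 and −1.41 for SLC2A5. In this comparison all 5 tested markers each of fibroblasts and matrix, smooth muscle, and enteric neurons and glia were higher after 7.4 Gy (medians 0.65, 0.45 and 0.47). Of 20 other tested genes of digestion and absorption, 18 were lower (median −0.46). None of these was called, and their part in the carriers' differences was not tested. A test of whether the dose difference varied with day called no member (limma's F test), with 1 probe at an unadjusted p under 0.05.

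Between days after 7.4 Gy, 6 member probes for 5 genes were called on day 7 against day 4 (5.41%, against 1.64% of all tested probes), 2 of them higher (0.852% of all) and 4 lower (0.792%). SLC12A4 fell by 1.01 (adjusted p = 0.00372), SLC5A11 fell by 4.13 (adjusted p = 0.0256), SLC6A20 fell by 1.74 (adjusted p = 0.0378) and SLC6A19 fell by 1.29 (adjusted p = 0.0365) on the log2 scale. Both called probes of SLC6A3, the dopamine carrier, rose, by 1.21 on A_01_P1807181 and 1.22 on A_01_P004694 (adjusted p = 0.0232 and 0.0256), and the third tested probe (A_01_P1671261) had a difference of 0.38 (adjusted p = 0.407). With the common floor the called probes had differences of 0.80 and 0.11 and were not called. SLC6A3 was not called against control on either day, and its levels on A_01_P1807181 were −2.61, −2.03, −2.44 and −1.95 on day 4, −0.70, −1.49, −0.46 and −1.54 on day 7, and −1.23, −1.83, −2.58 and −1.86 in the controls. With slide as a fixed block 5 of the 6 calls were lost and that of SLC6A3 on A_01_P004694 was kept, and with the common floor the changes of SLC5A11 and SLC6A20 were −2.73 and 0.00 and neither was called. SLC12A4 was also lost with slide as a random block. All 6 calls were lost with the methods' t-test and in a fit of only the arrays compared. With 1 array left out, each of these 6 calls was lost for 4 to 6 of the 8 arrays compared and for no other array, with adjusted p up to 0.143. SLC12A4 kept an adjusted p of at most 0.0181 and lost the call on its change alone, which fell to −0.92. After 6.7 Gy no member was called on day 7 against day 4 (1.55% of all), with 4 at 2-fold or more and an unadjusted p under 0.05 (3.30% of all) and none by the methods' t-test. There SLC12A4 changed by −0.92 (adjusted p = 0.00605), SLC22A17, named a brain-type organic cation carrier, by −0.83 (adjusted p = 0.0201), and SLC16A10 by 1.00 (adjusted p = 0.0107), just short of 2-fold.

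On day 12 against day 4, 1 probe was called after 6.7 Gy (0.901%, against 0.951% of all) and 6 probes for 5 genes after 7.4 Gy (5.41%, against 2.42%), all of them lower on day 12 (0.532% and 1.60% of all). SLC12A4 was called after both doses, with −1.18 (adjusted p = 0.0102) after 6.7 Gy and −1.34 (adjusted p = 0.00348) after 7.4 Gy. After 7.4 Gy the others were both probes of SLC9A9 (−1.43 and −1.53), SLC22A17 (−1.09), SLC20A2, the phosphate carrier PiT2 (−1.53), and SLC2A4 (−1.61), with adjusted p-values from 0.0107 to 0.0241. Both day 12 arrays of 7.4 Gy were in the second scan, and with scan as a block SLC20A2, SLC22A17 and SLC2A4 were not called. SLC2A4 changed by −0.10 with the common floor. Every call of both comparisons was lost with the methods' t-test and in a fit of only the arrays compared. All 6 calls were lost without replicate 1 of the 7.4-Gy day 12 group, which lay on the slide with the highest background. Without that array the change of SLC20A2 was −0.96, that of SLC22A17 −0.73 and that of SLC9A9 −0.95 and −0.98, while SLC12A4 (−1.17, adjusted p = 0.123) and SLC2A4 (−1.26, adjusted p = 0.353) stayed past 2-fold and lost only the p with 1 array left in the group. SLC20A2 and SLC2A4 were also lost without replicate 1 of the 7.4-Gy day 4 group. Without either day 12 array of 6.7 Gy the change of SLC12A4 after that dose was −1.23 or −1.14, and with 1 array left in the group the adjusted p rose to at most 0.0924.

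Genes that mark the position along the small bowel were called in some of the groups in which SLC5A11 and SLC6A20 were called. Of 6 tested markers of the proximal small bowel, S100G, which encodes the calcium-binding protein calbindin-D9k, and GATA4, a transcription factor of the duodenum and jejunum, were down-regulated on day 4 after both doses, S100G by −3.33 and −3.76 (adjusted p = 0.00653 and 0.0101), and ONECUT2 after 7.4 Gy. Of 5 tested markers of the distal small bowel, FABP6, the ileal bile acid-binding protein, was up-regulated by 4.97 on day 4 (adjusted p = 0.0381) and by 7.28 on day 12 (adjusted p = 0.00401) after 6.7 Gy, and GUCA2A, which encodes guanylin, by 1.36 on day 4 after 7.4 Gy (adjusted p = 0.0219). The log2 of the summed relative signal of the proximal list was 7.95 to 9.27 in the controls, 5.33 to 6.30 and 4.82 to 6.25 on day 4, 7.71 to 9.01 and 6.76 to 9.19 on day 7, and 5.62 to 6.55 and 7.44 to 7.46 on day 12, with 6.7 Gy first. That of the distal list was 3.89 to 4.48 in the controls, 4.08 to 6.19 and 4.98 to 6.66 on day 4, 4.25 to 5.08 and 3.75 to 4.87 on day 7, and 6.40 to 6.56 and 5.04 to 5.38 on day 12. All 4 day 12 arrays had lower proximal and higher distal sums than every control: SLC5A11 and SLC6A20 were above all controls on both arrays of 6.7 Gy, and had changes of 0.23 and 0.64 after 7.4 Gy. In the controls the proximal sum was led by S100G, with a mean of 8.59 against 3.28 or less for the other genes. CYBRD1 of the proximal list was above control on day 12 (mean 3.97 and 3.57 against 2.91). On day 4, 2 of the 6 proximal genes were above control after each dose, and 2 and 1 of the 5 distal genes were below it. On day 7 after 6.7 Gy, where SLC1A1 was 2.41 above control, both sums overlapped the controls. The part of these markers in the carriers' results was not tested.

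**Figure D4:**
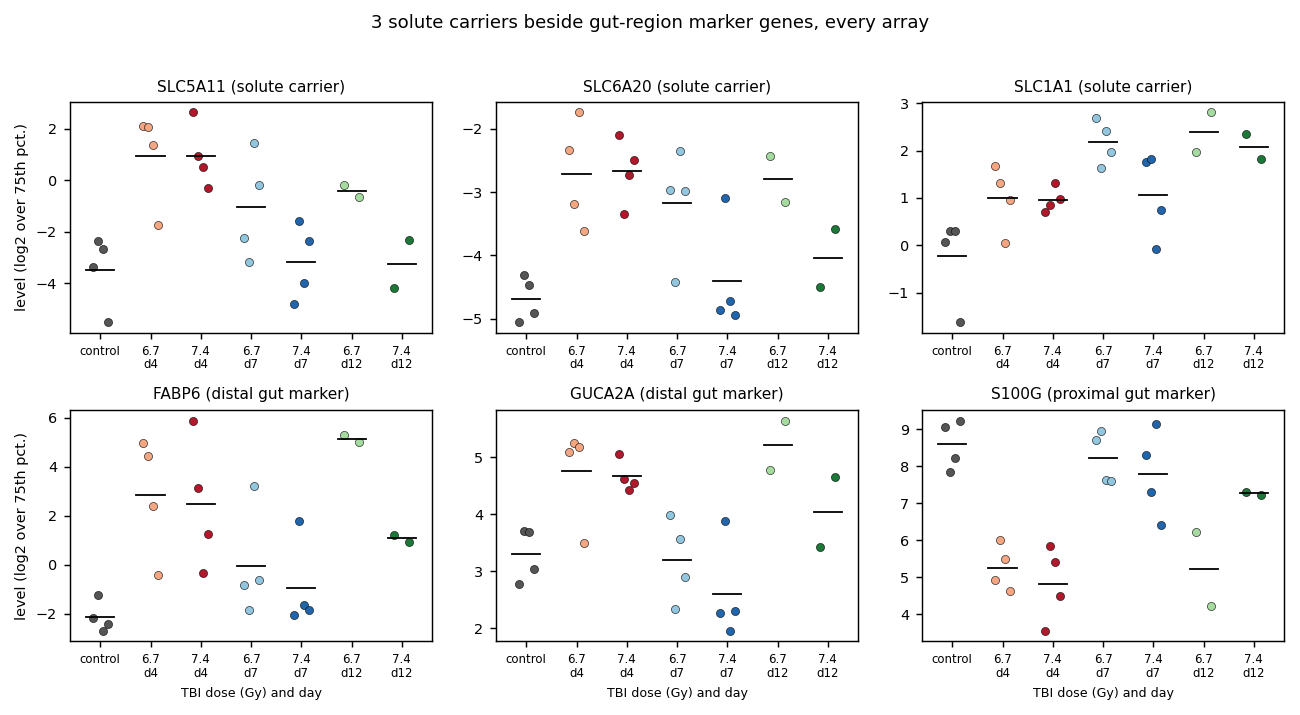
Log2 level against each array's 75th percentile (vertical axis) on each animal's array, with a bar at the group mean, for the carriers SLC5A11, SLC6A20 and SLC1A1 (top) and the bowel position markers FABP6, GUCA2A and S100G (bottom; horizontal axis: TBI dose in Gy and day). On day 4 SLC5A11 and SLC6A20 lie above and S100G below every control, and on day 12 after 6.7 Gy FABP6 and SLC5A11 are again above the controls.

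Markers of other cells of the bowel wall moved on day 4 as well. Of 10 tested enterocyte markers, RBP2 and FABP1, which bind retinol and fatty acids in the cytosol, fell after 6.7 Gy by 1.50 and 1.56 on the log2 scale (adjusted p = 0.00296 and 0.00754) and were also called after 7.4 Gy. The summed level of that list was 9.21 to 9.61 in the controls, 8.44 to 8.60 and 8.37 to 8.91 on day 4 and 8.68 to 9.38 and 8.29 to 9.11 on day 7. Of 5 tested fibroblast and matrix markers, 4 were up-regulated on day 4 after 7.4 Gy, and the summed level was 5.04 to 6.07 in the controls against 6.33 to 6.49 and 6.56 to 7.42. Smooth muscle sums overlapped the controls (8.18 to 8.66 against 8.47 to 9.18 after 7.4 Gy). These values stand beside lower levels of carriers that enterocytes express: SLC16A10, SLC9A2 and SLC6A8 on day 4, and SLC15A1 and SLC2A2, called on day 7. They also stand beside the higher day 4 levels of SLC12A4, SLC9A9 and SLC2A4. SLC6A20 and SLC1A1, also carriers of the enterocyte, were above control on day 4. Of the 10 enterocyte markers, 2 were above control on day 4 after each dose. The part of the markers in the carriers' results was not tested. Among 20 other tested genes of digestion, TREH, the brush-border trehalase, was called down on day 4 after 6.7 Gy (adjusted p = 0.0285). TMEM27 was called up on day 4 after 7.4 Gy. On day 4, 10 of the 20 were above and 10 below control after each dose, with medians of 0.006 and −0.009. DPEP1, a brush-border dipeptidase, was called down on day 7 after 7.4 Gy (−1.34, adjusted p = 0.022). In that group 16 of the 20 were below control and the median was −0.38.

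The calls of day 4 differed in how far they rested on single arrays. After 7.4 Gy, the calls of SLC12A4, SLC16A10, SLC6A20 and SLC9A2 held with any 1 of the 8 arrays left out. SLC9A9 was lost without control replicate 2 (lowest change 0.96), SLC5A11 without control replicate 1 (adjusted p = 0.0536), SLC6A8 without control replicate 1 or 2 or replicate 2 of the group (adjusted p up to 0.0597), and SLC2A4 without replicate 1 or 2 of either group (adjusted p up to 0.0673). After 6.7 Gy, SLC12A4 held throughout and SLC12A2 fell just under 2-fold without control replicate 2 or replicate 3 of the group (lowest change 0.96). SLC16A10 kept the call only when control replicate 4 or replicate 1 of the group was left out (changes from −1.20 to −0.92), and SLC16A9 only for control replicate 2 or replicate 1 of the group (1.31 to 1.72). SLC9A2 kept it only without replicate 3 of the group (−1.37 to −1.03), and SLC6A20 and SLC5A11 only without replicate 4 (1.64 to 2.26 and 3.76 to 5.34). With slide as a fixed block none of the day 4 calls held after either dose in the fits of 2 groups, although all the changes but those of SLC9A2 after 6.7 Gy (−0.91) and SLC9A9 after 7.4 Gy (0.86) stayed past 2-fold. The model of all 24 arrays with that block called 8 and 10 member probes, and slide as a random block gave 10 and 10. The shares of all tested probes called in those models are not given here. With array position as a block no call held after 6.7 Gy. No called member's groups overlapped, so its direction inside a slide, scan or array position that held both groups was fixed in advance. After 6.7 Gy, 6 of the 7 called members kept a 2-fold difference on slide 1, 4 on slide 2, 5 at position 1 and 7 in scan 1. After 7.4 Gy, 6 of the 8 kept it on slide 3, 7 on slide 4 and 8 in scan 1. Each slide held 1 array of each group. The difference of SLC5A11 after 6.7 Gy was 4.75 on slide 1 and 0.62 on slide 2.

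The 3 calls of day 7 after 7.4 Gy stood at the threshold. With 1 of the 8 arrays left out, SLC6A8 kept the call in none of the fits (changes from −1.84 to −1.50), and SLC15A1 and SLC2A2 only without replicate 3 of the irradiated group (changes from −1.18 to −0.96 and from −1.22 to −1.02), with adjusted p up to 0.148 for each. Within slide 1, slide 2 and scan 1, which held both groups, the differences were −1.62, −2.19 and −1.95 for SLC6A8, −0.86, −1.42 and −1.08 for SLC15A1 and −1.10, −1.31 and −1.12 for SLC2A2. The day 12 arrays of 7.4 Gy shared no slide and no scan with the controls, so batch and group cannot be told apart there. All 4 controls lay at array position 1, and all irradiated arrays but 2 of the 6.7-Gy day 4 group lay at other positions, so position and irradiation cannot be told apart within the other 5 comparisons with control.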

How the data were processed

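Jejunum RNA from 24 rhesus macaques was hybridised to 1-colour (Cy3) Agilent rhesus 4x44K v2 arrays. The deposited scanner files (Feature Extraction 11.0.1.1, build rheMac2 per the file headers) hold processed signal intensity, background-corrected by that software, and the authors' methods state a 75th-percentile normalization on the log2 scale in GeneSpring. No columns of the authors' own comparisons were used. A deposited table of log2 values normalized by the authors gave the gene symbols, and its unnormalized counterpart matched the scanner's intensity values for 99.98% of entries.

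Here the log2 processed signal minus the 75th percentile of each array was used, with spots of a probe averaged and outlier-flagged spots left out. Probes were tested if well above background on all arrays of at least 1 group. Comparisons with control were fitted with limma 3.58.1 (R 4.3.3) on the arrays of both groups, and doses and days in 1 model of the 7 groups; the Benjamini-Hochberg limit was 0.05 with a 2-fold change. Tables and plots used Python 3.11.15, pandas 2.3.3 and matplotlib 3.10.9. The fits were tested on simulated data.

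The text names every member called, the classical jejunal carriers, up to 6 members per comparison of days or doses, 1 member of each class without a call, and the leading genes of the marker lists. Members and lists were chosen with earlier results of these data known. Gene lists used the probe with the highest mean level per gene. Of the 124 symbols, 121 matched RefSeq gene names of T2T-MMU8v2.0, 1 matched a synonym and 2 did not match.

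Alternatives were normexp background correction with an offset of 50 on the median signal, a common floor, no filter on dim probes, slide, scan, position or replicate number as a block, the percentile over detected probes, the authors' normalized table, other sets of arrays, each array left out and the methods' t-test. The treatment text and the sample labels give different last days, and the labels' day 12 was used. The labels do not say that replicate numbers pair the animals, and over 62 pairs of arrays with the same number, the correlation of deviations from group means had a median of 0.017 (−0.165 to 0.334), with 15 over 0.1. Where a number also marks a shared slide it was 0.095 to 0.238 (control and 6.7 Gy day 7) and 0.082 to 0.308 (6.7 Gy day 4 and 7.4 Gy day 7). With day 12 arrays on a shared slide it was 0.121 and 0.199 (6.7 Gy day 4 and 7.4 Gy day 12). It was 0.082 and 0.334 for 7.4 Gy day 7 and 7.4 Gy day 12, and −0.010 and 0.187 for 7.4 Gy day 4 and 6.7 Gy day 12. Not every pair passed 0.1, and the numbers were not used as pairs. The number of arrays, 4 or 2 per group, limits the precision. All arrays of a group are from separate animals. The values of 1 member are not reported here.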

Additional observations from a re-analysis of the deposited data

Results flagged for a closer look

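In groups of 4, an array was singled out where its gap to the nearest other array, as a share of the group's range, exceeded Dixon's critical value at 95%, which 10 of 165 groups of the named probes did, and chance gives about 1 in 20. Among controls, SLC1A1 replicate 4 read −1.63 against 0.08 to 0.31 in the others, SLC5A1 replicate 1 read 4.94 against 4.10 to 4.17, and SLC13A2 replicate 1 read 0.62 against −0.13 to −0.09. On day 4 after 7.4 Gy, replicate 1 stood apart for SLC9A9 on A_01_P011905 (−0.19 against 0.04 to 0.06), SLC12A2 (−0.24 against 0.23 to 0.24) and SLC7A8 (1.14 against 2.36 to 2.55). On day 7, SLC16A1 in replicate 4 of 6.7 Gy read −1.82 against −2.90 to −2.77. On day 7 after 7.4 Gy, SLC22A17 read 1.11 in replicate 2 against 1.74 to 1.81, SLC6A20 read −3.10 in the same array against −4.94 to −4.73, and SLC6A8 on A_01_P1742518 read −0.077 in replicate 4 against 0.89 to 1.01.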

How the results depend on the processing

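Counts of members called changed with the processing, and no called member reversed its direction. The counts below stand without the share of all tested probes called under each setting, so they cannot be read as particular to the carriers. On day 4 the 7 calls after 6.7 Gy and 8 after 7.4 Gy became 3 and 4 with the common floor, 2 and 5 with the methods' t-test, 1 and 2 with no filter on dim probes, 3 and 5 with normexp, 3 and 4 with scan as a block, 0 and 0 when slide was a fixed block, and 1 and 1 with replicate number as a block, although the numbers were not taken as pairs. With position as a block the count after 6.7 Gy was 0, and in a model of all 24 arrays, chosen after seeing the data, 2 after 6.7 Gy and 0 after 7.4 Gy. The day 4 counts were 8 and 9 with all 24 arrays, 8 and 10 with slide fixed as well, and 10 and 10 with slide random. On day 7 the count of 0 after 6.7 Gy became 1 with all 24 arrays, normexp, slide as a random block or slide fixed with all 24 arrays. The count of 3 after 7.4 Gy became 10 with all 24 arrays, 10 with slide fixed as well, 6 with slide random, 5 with normexp, 1 with the floor, and 0 with the t-test, no filter, replicate block, scan, slide fixed or without slide 5. With the percentile over detected probes the call of SLC6A8 in that comparison was lost. Day 7 against day 4 after 6.7 Gy went from 0 to 3 with scan, 6 with slide fixed, 2 with slide random and 1 without slide 5, and after 7.4 Gy from 6 to 4 with slide fixed (1 of the 6 kept, SLC6A3 on A_01_P004694), 2 with the floor or normexp, 1 with no filter or without slide 5, and 0 with the t-test or only the arrays compared. The count of 7 for day 12 against day 4 became 4 with slide fixed (2 of the 7 kept, both SLC12A4), 4 without slide 5 (1 kept, SLC12A4 after 6.7 Gy), and 0 with the t-test or only the arrays compared. With 1 array left out the counts ran from 2 to 7 and 5 to 11 on day 4, 0 to 0 and 0 to 3 on day 7, 0 to 0 and 0 to 2 on day 12, 0 to 6 and 0 to 6 for day 7 against day 4 (6.7 Gy first), 1 to 9 for day 12 against day 4, and 0 to 0 between doses. Dose differences, the dose-by-day test and day 12 against control kept a count of 0 under the other settings. Low signal limits SLC5A11, SLC6A20, SLC16A9, SLC2A4, SLC9A2 and SLC6A3, whose calls were lost with the floor. The floor also moved SLC2A2 on day 7 to just under 2-fold, and SLC6A8, far above the floor, kept its change of −1.66 and lost only the p.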

Other observations

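Some carriers that passed no comparison with control in the fits of 2 groups varied widely between animals. SLC22A15, an organic ion carrier, read −0.08, −4.12, 0.05 and 6.51 in the controls, and the highest of these, from a single animal, sets the control mean. The 6 irradiated groups ranged from −4.62 to −0.70, within the control range but for 3 arrays, and none was called (adjusted p from 0.212 to 0.747, limma). SLC2A1, the glucose carrier GLUT1 of red cells and many other cell types, was highest in control replicate 1 (0.03) and lay between −3.56 and −3.05 on day 7 after 7.4 Gy, a change of −1.84 (adjusted p = 0.157). HBB, the beta-globin of red cells, was called down in the same comparison by −8.62. The 3 tested erythroid genes had changes from −8.62 to 0.27 there, with a median of −0.49. Their summed level, 6.77 to 7.73, overlapped that of the controls, 7.22 to 8.01. The part of these genes in the SLC2A1 values was not tested. SLC7A4, an orphan relative of the cationic amino acid carriers, had changes of −1.68 and −2.20 on day 7 after 6.7 and 7.4 Gy (adjusted p = 0.322 and 0.179), and was called after 7.4 Gy in the model of all 24 arrays (adjusted p = 0.041). SLC16A13 and SLC22A13 stood out in replicate 1 of the 7.4-Gy day 7 group, on the slide with the highest background, with −0.79 and 0.35, where the other 3 arrays lay between −6.33 and −4.75 and between −5.45 and −5.11. SLC16A3, the lactate exporter MCT4, showed little movement, with changes between −0.23 and 0.24 on probe A_01_P003112 in the 6 irradiated groups.

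Of the 26 genes with 2 or more tested probes, the probes' changes against control lay within 0.5 of each other on the log2 scale in 22 and 21 genes on day 4, 24 and 24 on day 7 and 25 and 23 on day 12 (6.7 Gy first). These 6 genes and the spread between probes were chosen for description after their values were seen.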
